A study of Homo sapiens with 8 samples.

Results

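The wild-type RUNX1 binding map described here holds 6372 regions of the HEL genome in which CUT&RUN peaks of HA-tagged wild-type RUNX1 were called, over an empty vector line, in both biological replicates. They were chosen by merging the peaks of the 2 wild-type (WT) lists on chromosomes 1 to 22 and X wherever these overlapped by at least 1 bp, and by keeping each merged region that held a peak of both lists. The map is 24.5% of the 26050 regions in the union of the 2 WT lists, and the union of all 6 lists of the series held 33402 regions. In CUT&RUN an antibody bound in permeabilized cells directs a nuclease to the chromatin around its target, and the fragments set free are sequenced.

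HEL is an established human erythroleukaemia cell line. The series compared 4 transduced lines of it with 2 biological replicates each, carrying HA-tagged WT RUNX1, HA-tagged RUNX1-4A, HA-tagged RUNX1-4D or an empty vector, and an anti-HA antibody was used for every line. Per the labels' protocols, every line was grown in 2 µg/ml puromycin to select transduced cells, and each of the 8 samples took 500000 cells, 0.01% digitonin and 12 cycles of PCR. The labels do not say which promoter drives the construct, or whether a line is a clone or a pool. The antibody sees only the tagged protein, so RUNX1 made from the cells' own gene was not measured. A peak list holds no expression, so the markers of HEL could not be checked, and the text says only where peaks lie. Where fragments of the construct map to the RUNX1 gene they cannot be told apart from it here.

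RUNX1 is the DNA-binding subunit of core binding factor. Its Runt domain contacts DNA and is held in its binding form by the partner CBFB, which does not touch DNA itself. In blood, RUNX1 is needed for stem cells to arise in the embryo and for megakaryocytes and platelets to mature, and it often sits on DNA with GATA, TAL1, LMO2 and ETS family factors. Its preferred DNA contains the core TGTGGT, with TGCGGT as a close variant.

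The following sequences are stretches of 6 promoters, the 6 strongest of the 40 list genes with a summit of the map in the promoter window. Of the 40 windows 10 hold a RUNX core, and 5 of these are among the 6 shown. The stretches let the summit positions given below be read against the RUNX core, where a stretch holds one. Each runs 5′ to 3′ on the gene's own strand, from RefSeq (GRCh38.p14), and lies before the start of its gene. Capitals mark TGTGGT or TGCGGT on either strand, so that ACCGCA is the core read from the opposite strand.
F2RL3: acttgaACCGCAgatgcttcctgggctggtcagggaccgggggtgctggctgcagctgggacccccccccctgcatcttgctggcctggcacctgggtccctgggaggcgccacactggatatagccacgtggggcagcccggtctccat
MYH10: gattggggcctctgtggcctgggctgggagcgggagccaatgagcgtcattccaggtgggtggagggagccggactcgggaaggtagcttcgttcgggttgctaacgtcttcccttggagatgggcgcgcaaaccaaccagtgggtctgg
MYH9: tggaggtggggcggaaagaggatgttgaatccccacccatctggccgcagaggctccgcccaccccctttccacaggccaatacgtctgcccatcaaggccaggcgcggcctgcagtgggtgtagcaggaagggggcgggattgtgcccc
STAT3: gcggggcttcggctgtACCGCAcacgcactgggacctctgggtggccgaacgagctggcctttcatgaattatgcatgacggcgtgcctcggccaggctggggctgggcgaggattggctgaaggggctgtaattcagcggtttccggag
GP1BB: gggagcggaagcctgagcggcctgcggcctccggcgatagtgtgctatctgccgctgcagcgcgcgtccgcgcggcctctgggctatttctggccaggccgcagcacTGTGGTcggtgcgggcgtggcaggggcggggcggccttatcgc
CDKN2D: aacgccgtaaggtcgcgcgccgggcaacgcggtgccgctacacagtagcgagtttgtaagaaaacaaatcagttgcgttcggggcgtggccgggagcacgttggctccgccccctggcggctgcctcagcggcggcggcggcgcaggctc
F2RL3 encodes the platelet thrombin receptor PAR4, and the stretch is chr19:16888849-16888998 on the plus strand, with the summit at -20 bp from the start and the core near the upstream edge of the stretch. MYH10 (chr17:8630826-8630975, minus strand) and MYH9 (chr22:36388068-36388217, minus strand) encode non-muscle myosin heavy chains, and their summits lay at -197 and -231 bp. Neither printed stretch holds a core, but each promoter window holds 1 outside it. STAT3 (chr17:42388485-42388634, minus strand) is a transcription factor of cytokine signalling, with the summit at -117 bp. GP1BB (chr22:19723362-19723511, plus strand) encodes a chain of the platelet receptor for von Willebrand factor, with the summit at -102 bp. CDKN2D (chr19:10568980-10569129, minus strand) encodes the cell cycle inhibitor p19, and its window holds no core although the summit lay at -49 bp.

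The authors' values show how firmly each of these 6 promoter regions was called. The F2RL3 region had 29.8-fold enrichment over background in replicate 1 and 53.2-fold in replicate 2, with −log10 q of 82.4 and 247. The MYH10 region had 38.6-fold and 25.9-fold enrichment (−log10 q 102 and 120), and that of MYH9 36.2-fold and 20.3-fold (−log10 q 91.3 and 66.3). The 2 myosin promoters thus had the higher fold in replicate 1 and F2RL3 in replicate 2. Over the whole map the median fold was 7.69 in replicate 1 and 10.9 in replicate 2. Whether folds of the 2 lists are on a common scale is not known, and differences between the replicates were not tested. The STAT3 promoter region had 20.4-fold and 15.1-fold enrichment, the GP1BB region 17.0-fold and 20.7-fold, and the CDKN2D region 11.3-fold and 7.86-fold.

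The lists of the 2 WT replicates differed in length. Replicate 1 had 6752 peaks and replicate 2 had 25845 on the chromosomes used, covering 2.28 and 11.7 Mb. Nearly all of the shorter list lay in the map, 6543 of its peaks (96.9%), against 6376 of the longer list (24.7%). A further 209 regions were called in replicate 1 only and 19469 in replicate 2 only. Read depth per library is unknown, so absence from a list says that no peak was called there, not that RUNX1 was absent. The lists hold no empty vector peaks, and with 2 libraries of 1 line no test between groups could be made; intervals given below cover counting error only. The shorter list set which regions could enter the map.

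Regions called in replicate 2 only were weaker and narrower than the map in that same list. Their median enrichment was 5.44-fold and their median −log10 q 7.68, while the map's replicate 2 peaks had medians of 10.9-fold and 31.6. In replicate 1 the map's medians were 7.69-fold and 11.0. Enrichment in the map ranged from 2.247 to 65.8-fold in replicate 1 and from 2.261 to 61.95-fold in replicate 2. The summits of the 2 replicates, the points of highest signal, lay a median of 40 bp apart, and in 79.7% of regions they lay at most 100 bp apart.

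The order of strength was shared in part. Across the 6372 regions, Spearman's rho between the replicates was 0.58 for −log10 q and 0.44 for fold enrichment; regions of a library share its depth, and these are descriptions. The 641 strongest regions by replicate 1 and the 638 strongest by replicate 2 had 315 in common, 49.1% of the first group. The strength of a region is from here on the lower of its 2 percentile ranks of −log10 q, each taken within its own list, so that a region is strong only where both replicates rank it high.

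**Figure D1:**
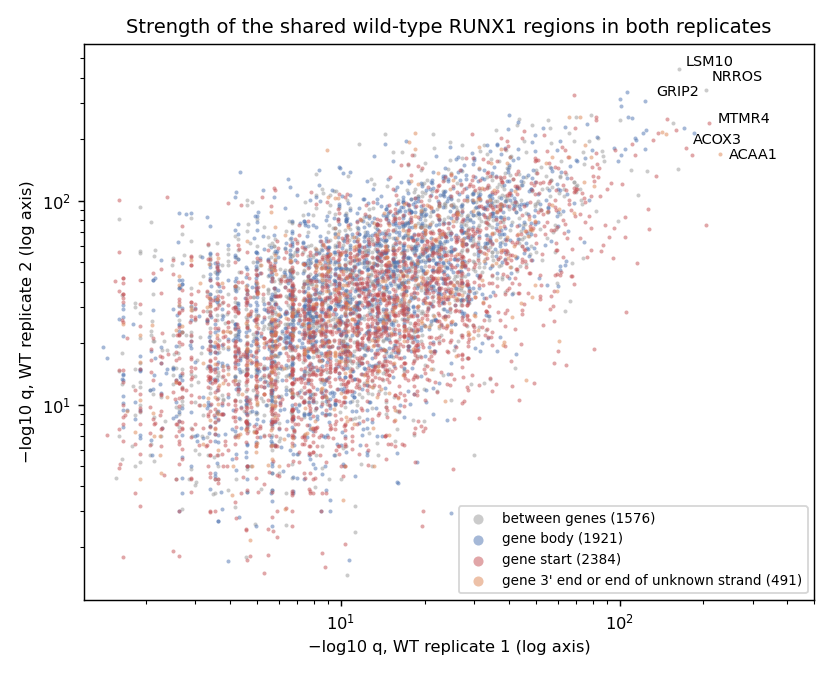
Each point is 1 of the 6372 regions, with the authors' −log10 q in WT replicate 1 on the horizontal and in WT replicate 2 on the vertical axis, both logarithmic, coloured by the location of the summit. LSM10 reached the highest value in replicate 2 (440) and ACAA1 the highest in replicate 1 (230).

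The strongest region of all lay between genes, 7.21 kb upstream of NRROS, which encodes a protein that holds latent TGF-beta on myeloid cells and microglia (chr3:196631869-196633143). It had 54.3-fold and 53.1-fold enrichment in replicates 1 and 2, with −log10 q of 205 and 347. The region at the start of MTMR4, a phosphoinositide phosphatase of endosomes (chr17:58517316-58518976), had 62.1-fold and 45.8-fold enrichment. One in the body of ACOX3, a peroxisomal acyl-CoA oxidase, had 58.0-fold and 47.5-fold. A region 3.17 kb upstream of LSM10, a subunit of the particle that processes histone messenger RNA, had 30.9-fold and 43.6-fold. In each of these 4 regions both replicates were far above the map's medians.

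The 20 strongest regions together spanned −log10 q of 114 to 230 in replicate 1 and 168 to 440 in replicate 2, and their widths ran from 796 to 2037 bp. Of them, 7 had the summit at a gene start, 7 in a gene body, 3 at an end of unknown strand and 3 between genes. Among the starts was the pair COPZ2 and NFE2L1, a coatomer subunit and a transcription factor related to NFE2 (46.0-fold and 41.5-fold), and that of TPCN1, an ion channel of endosomes and lysosomes (35.0-fold and 42.9-fold). The region at the start of KRI1 (37.1-fold and 22.9-fold) lay 0.343 kb beyond an end of CDKN2D, whose own promoter region is given above. The gene body group held IMPDH2, the enzyme of guanine nucleotide synthesis (37.5-fold and 30.3-fold), and 2 regions in UBASH3B, which encodes a phosphatase that dampens receptor signalling in blood cells. The remaining genes named by the 20 were RIC1, RSPH1, SPAG4, ZFTRAF1, WDCP, SH3GL2, GRIP2, DRC10, ACAA1 and APLP2.

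Gene starts were the most frequent location. The summit of 2384 regions (37.4%, 95% Wilson interval 36.2 to 38.6) lay within 1 kb of the start of a protein-coding gene, a class that takes up 1.28% of the genome between the first and last gene of each chromosome. Gene bodies held 1921 (30.1%), against 40.0% of the genome, and 1576 (24.7%) lay between genes, against 57.3%. The 3′ end of a gene was the location of 110 regions (1.73%, against 0.939%). For 381 (5.98%, against 0.481%) the nearby end belonged to a gene whose strand was not known. Such ends can be starts or 3′ ends, so some regions at starts may be counted there. Regions called in replicate 2 only were at a gene start in 21.4% of cases (Wilson interval 20.86 to 22.02), in a gene body in 38.8% and between genes in 33.7%. Within the map the share at gene starts showed no order with strength: from the weakest to the strongest 1593 regions it was 38.8, 36.2, 39.3 and 35.4%.

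**Figure D2:**
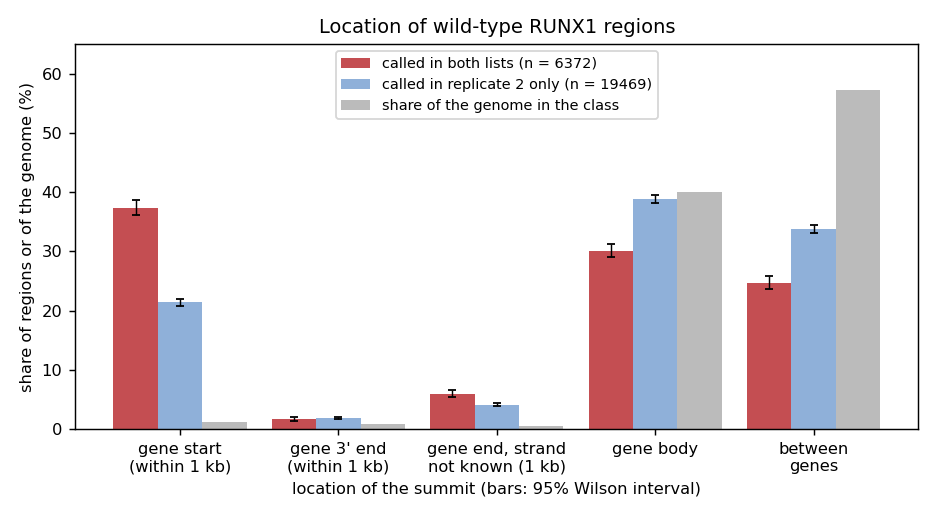
Bars give the percent of regions with the summit in each class, for the 6372 regions of the map and the 19469 called in replicate 2 only, with 95% Wilson intervals, beside the percent of the genome in the class. The map's share at gene starts (37.4%) stands above both the replicate 2 only regions (21.4%) and the genome (1.28%).

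At gene starts the summits lay mostly on the upstream side. Of 2332 summits within 1 kb of a start listed in the promoter table, 1599 (68.6%) were upstream, and 1109 (47.6%) fell in the 200 bp just before the start. The median position was -81 bp, with quartiles at -180 and 44 bp, where negative is upstream. Regions at starts had a median width of 726 bp, against 586 bp in gene bodies and 581 bp between genes, and those at ends of unknown strand 746 bp. Their median −log10 q in replicate 2 was lower, 27.1 against 36.4 in gene bodies and 35.7 between genes, while in replicate 1 the 3 classes had 11.2, 11.1 and 11.2. Whether signal at starts is called differently in the 2 libraries was not tested.

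**Figure D3:**
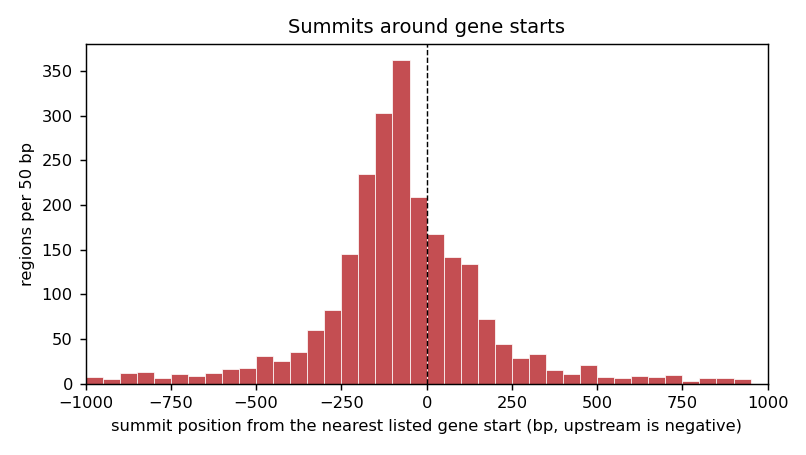
Bars count the regions by the position of their summit from the nearest listed gene start, in 50 bp steps, with negative values upstream. The summits pile up just before the start, with a median of -81 bp over 2332 regions.

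Away from starts the map reached far from protein-coding genes. Regions between genes lay a median of 24.9 kb from the nearest protein-coding gene end, 298 of the 1576 lay over 100 kb away, and 395 (25.1%) were inside a gene for a long non-coding RNA. Strong ones besides NRROS, LSM10 and RSPH1 were those nearest TAGLN2, an actin-binding protein (28.9-fold and 41.1-fold, 7.65 kb from the gene), and CHRNA1, a subunit of the muscle acetylcholine receptor (49.5-fold and 21.7-fold, 14.3 kb). At 3′ ends the strongest region was that of MALT1, a signalling protease of lymphocytes (20.8-fold and 36.4-fold). Next came the space between the 3′ ends of STAT5A and STAT3 (chr17:42312143-42313319), which had 15.1-fold and 40.1-fold enrichment, with −log10 q of 72.3 and 258. RPS9, CTDSP1 and TADA3 followed. CHKA and PABPC1 were next to SPAG4, ZFTRAF1 and ACAA1 among ends of unknown strand.

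The density of regions differed between chromosomes. Over all chromosomes there were 2.11 regions per Mb and 31.9 per 100 protein-coding genes. Chromosome 19 had 7.34 per Mb but 29.6 per 100 genes. Chromosome 21 had the most per 100 genes, 47.3, with chromosome 3 at 43.1, and chromosomes 7 and X the fewest, 20.1 and 11.2. The single lists showed the same ends: replicate 1 had 50.6 peaks per 100 genes on chromosome 21 and 11.4 on X, and replicate 2 had 188 and 55.9. Copy number of HEL chromosomes was not measured, and its part in these values was not tested.

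Widths ran from 152 to 4578 bp with a median of 639 bp, and 1326 regions (20.8%) were at least 1000 bp wide. Only 10 reached 3000 bp. The widest (chr16:85610498-85615075) lay at an inner start of GSE1, a subunit of a corepressor complex; 2 replicate 1 peaks fell in it, the best with 8.78-fold enrichment, and 1 peak of replicate 2 with 30.8-fold. The second, 4075 bp at the start of RASGRP2, the activator of the GTPase RAP1 in platelets (chr11:64742308-64746382), had 18.7-fold and 61.95-fold. At this region replicate 1 had 3 separate peaks where replicate 2 had 1. TAGLN2 (3905 bp), TRAM2 (3878 bp), TSPAN32 (3824 bp), TNRC18 (3597 bp), CIC (3278 bp), PLEC (3135 bp), CTSD (3076 bp) and CD63 (3023 bp) completed the 10. CD63 is a tetraspanin of platelet granules and lysosomes, CTSD a lysosomal protease and CIC a repressor of ETS family genes. Each replicate's own peak width went with its own −log10 q, with Spearman's rho of 0.49 in replicate 1 and 0.56 in replicate 2 over 6372 regions. The median peak width was 285 bp in replicate 1 and 635 bp in replicate 2.

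Most regions stood alone. When regions at most 10 kb apart were joined, 5195 stayed single and 1177 (18.5%) fell into 534 clusters, of which 446 held 2 regions, 71 held 3 and 17 held 4 or more. The peaks of replicate 1 alone gave 675 clusters and those of replicate 2 alone 4956. The clusters had a median span of 5.95 kb and the longest reached 31.2 kb, while a region's nearest neighbour lay a median of 52.0 kb away. Clustered regions had a median strength of 56.4, against 49.2 for single ones, and were 719 against 621 bp wide. Of clustered regions 40.0% lay in gene bodies and 27.02% at gene starts, and of single ones 27.9 and 39.77%.

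The cluster with the most regions, 6, lay over TGM2, the tissue transglutaminase (chr20:38134290-38165456). Its strongest member had 27.5-fold and 31.0-fold enrichment (−log10 q 102 and 290), and its weakest 4.34-fold and 16.7-fold (2.79 and 85.9). All 6 lay in the gene body, and over them −log10 q ran from 2.79 to 102 in replicate 1 and from 25.6 to 290 in replicate 2. A cluster of 5 lay between genes near EPS8L3, 24.5 to 39.5 kb from its end, with −log10 q of 15.4 to 50.7 in replicate 1 and 60.6 to 211 in replicate 2. PLEC, the cytoskeletal linker plectin, held the other cluster of 5. RPS6KA1, a kinase downstream of ERK, had 4 regions in 14.4 kb, among which the one at an inner start had 16.3-fold and 25.9-fold enrichment (82.2 and 257). Further clusters of 4 lay at CTDSP1 and SLC11A1, FOXO6, STOML2 and ATOSB, CEP85 with SH3BGRL3 and UBXN11, and ZFPM1. Another of the 14 clusters of 4, not all of which are named here, lay between 350 and 374 kb from the nearest protein-coding gene, TMEM121. Genes of other kinds were not counted in this distance, so they may lie closer.

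Over each gene and its flanks of 10 kb, 29.2% of the 19970 protein-coding genes had at least 1 region and 6.91% had 2 or more. Among these, 32 genes had 5 or more. Long genes can collect regions by their length alone, and genes with a region had a median length of 30.8 kb, against 24.2 kb for all genes. GSE1 had 10 regions, or 1.90 per 100 kb, with −log10 q of 8.55 to 23.4 in replicate 1 and 18.7 to 122 in replicate 2. ZMIZ1, a PIAS-like coactivator, had 9 (3.36 per 100 kb). ZFPM1, the GATA1 cofactor FOG1, had 8 in a shorter gene (7.60 per 100 kb), and the strongest of them, 39.9 kb inside the gene, had 25.4-fold and 53.3-fold enrichment. IQSEC1 also had 8, and UBASH3B, KSR1, XXYLT1 and RUNX1 had 7 each. TGM2 and TSPAN14 had 6, which for the short TGM2 came to 9.82 per 100 kb.

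RUNX1 itself held 7 regions over 262 kb (2.49 per 100 kb of the gene and its flanks), and 3 of these lay within 10 kb of an end of the gene. The strongest (chr21:35047974-35049564) covered the distal start of the gene, with the summit 0.048 kb inside it, and had 17.8-fold and 26.2-fold enrichment, with −log10 q of 63.8 and 176. A region beside it (chr21:35045777-35047268) had −log10 q of 40.3 and 262. The inner start (chr21:34888558-34891375) carried a region 2818 bp wide with 6.04-fold and 11.4-fold. The weakest (chr21:34807508-34808724) had 3.25-fold and 7.22-fold. The highest value of replicate 1 thus lay at the distal start and that of replicate 2 in the region beside it. As the transduced sequence is RUNX1 itself, its part in these values was not tested.

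Within 10 kb of either end of a gene, the map had a region for 5132 of the 19970 protein-coding genes, or 25.7%, and the median strength of their best regions was 54.6. The same count was 26.3% of genes with the replicate 1 list alone and 55.1% with the replicate 2 list. Lists of genes by function were read against this share. The lists were chosen with earlier results of these data known, so a count above the share is no independent evidence. Of 305 genes in 14 lists, 128 (42.0%) were called, as were 128 with replicate 1 alone and 215 with replicate 2 alone. Members said below to have no region had none of the map in the gene or its flanks of 10 kb. Such a member can still have peaks in the replicate 2 list alone, as PFN1 did with 8 within 10 kb of its ends. Others, such as MYL9, had none there in either list. A summit within 1 kb of the start was found for 70 of the 221 listed genes with a known start, where 16.6% of all such genes had one.

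**Figure D4:**
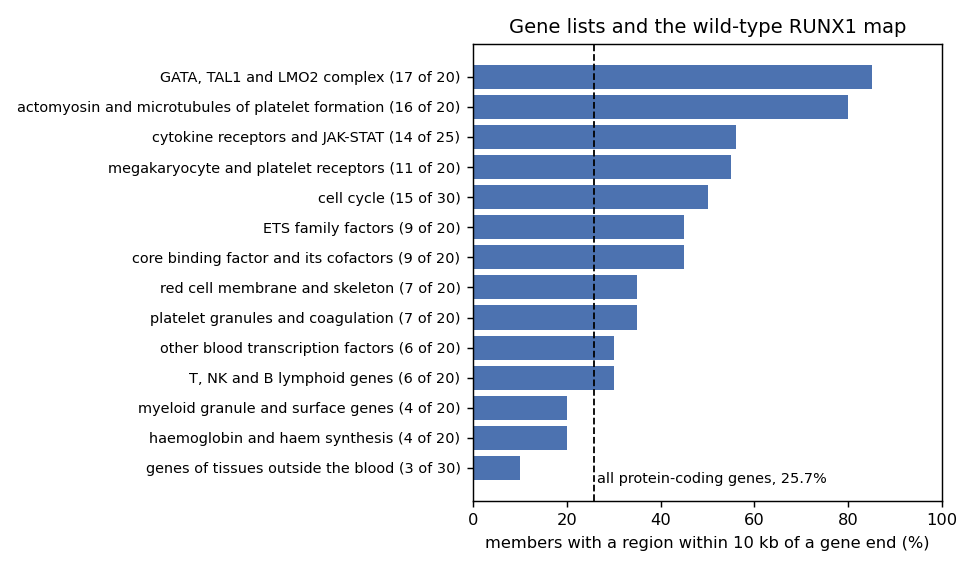
Bars give, for each of the 14 lists, the percent of members with a region within 10 kb of either gene end, with the counts in the labels; the dashed line marks the 25.7% of all protein-coding genes. The GATA, TAL1 and LMO2 list (17 of 20) and the actomyosin list (16 of 20) stand highest, and the list of tissues outside the blood (3 of 30) lowest. The lists were chosen with earlier results of these data known.

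Of the core binding factor and its cofactors, 9 of 20 were called, with a median strength of 65.8, and 12 had a region somewhere in the gene or its flanks. Besides RUNX1 these included SIN3A, a corepressor scaffold (31.0-fold and 14.1-fold, −log10 q 116 and 49.4), and EP300, a coactivator acetyltransferase (16.1-fold and 13.3-fold). CBFA2T2, a member of the ETO corepressor family (10.5-fold and 10.2-fold), and PRMT1, an arginine methyltransferase (7.54-fold and 13.2-fold), followed. CBFB, named after its values were seen, was called at 8.24-fold and 19.8-fold. RUNX1T1, TLE1, TLE3, TLE4, HDAC1, NCOR1, PRMT6 and KMT2A had no region.

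Of the GATA, TAL1 and LMO2 list 17 of 20 were called, the highest share of the 14 lists within 10 kb, and 9 of 18 known starts had a summit within 1 kb; the median strength was 58.2, near that of all called genes. LMO2, the bridging protein of the complex, had a region in the gene body with 36.2-fold and 31.0-fold enrichment (−log10 q 102 and 168). GFI1B, a repressor needed for red cells and platelets, had one 9.70 kb outside the gene (16.5-fold and 18.7-fold). SSBP3, a partner of LDB1, had 13.2-fold and 24.7-fold, and TCF3, which pairs with TAL1, 13.9-fold and 18.9-fold. GFI1, KLF1 and BCL11A were the 3 members not called, and had no region. Within 2 kb of an end, where 18.1% of all genes were called, the count was 9 of 20, below the 12 of 20 of the actomyosin list. In the ETS list 9 of 20 were called, led by ETV5 (14.8-fold and 18.2-fold) and including ELK1, ELF2 and ELK3. ETS2, ERG, SPIB, SPIC, ELF1, GABPA, ETV4 and EHF had no region. Other blood transcription factors were called in 6 of 20, a share near the background. They were led by NFE2, a regulator of platelet release (27.7-fold and 29.9-fold, −log10 q 68.5 and 123), and by BACH1, a haem-sensing repressor (10.5-fold and 18.5-fold). MYB, MYC, HOXA9, HOXA10, IKZF1, IKZF2, CEBPB, IRF8, IRF1, MAFG, MAFK and BACH2 were among those with no region.

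Lists of the platelet lineage differed in their counts. The actomyosin and microtubule genes of platelet formation had 16 of 20 called, 12 of 18 known starts with a summit within 1 kb and a median strength of 68.9. MYH10 and MYH9 led, followed by MYL12A, a myosin light chain (11.4-fold and 16.8-fold), and ACTN1, the cross-linker alpha-actinin (11.7-fold and 30.2-fold). VCL, the adhesion protein vinculin, came next with a region 6.15 kb outside the gene (14.4-fold and 18.8-fold). MYL9, ACTB, CDC42 and PFN1 had no region. With both lists cut to equal length, the count was 10 of 20 where 17.0% of all genes were called. The surface receptors had 11 of 20 called with the highest median strength of the lists, 78.8. After F2RL3 came ITGB3, the integrin chain that pairs with ITGA2B to bind fibrinogen (12.96-fold and 16.87-fold), GP1BB, PEAR1 (9.41-fold and 41.2-fold, in another gene 9.90 kb away) and GP1BA (13.7-fold and 21.5-fold). GP5, P2RY1, P2RY12, CD9, CD36, CLEC1B and TREML1 had no region. The granule and coagulation genes had 7 of 20, led by NBEAL2, a protein needed to form alpha granules (12.7-fold and 21.1-fold), VIPAS39 (17.5-fold and 12.6-fold) and TGFB1 (14.1-fold and 10.3-fold, at the start of a neighbour), which had 4 regions. PF4, PPBP, THBS1, SRGN and F13A1, abundant cargo genes, had no region.

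Of the red cell lists, haemoglobin and haem synthesis had 4 of 20, below the 25.7% of all genes. Among them were ALAD, SLC25A38 and PPOX, which act in haem synthesis and had 2 regions each. The stronger region counted for ALAD lay 9.40 kb outside the gene (8.65-fold and 11.1-fold). No globin gene of the list was called, that is HBA1, HBA2, HBB, HBG1, HBG2, HBE1, HBZ and HBD, and neither was ALAS2. The replicate 2 list alone had a peak within 10 kb of an end of HBA1, HBA2, HBB, HBD, HBZ and ALAS2. It had none there for HBG1, HBG2 and HBE1, and replicate 1 had none for any of these genes. Reads of near-identical globin copies may be lost or split in mapping, which was not tested. The sources used here do not say how such reads were filtered. Membrane and skeleton genes had 7 of 20, led by ERMAP, an erythroid membrane protein (13.9-fold and 18.9-fold), SLC2A1, the glucose transporter (8.95-fold and 16.9-fold, 3 regions), and RHD (10.1-fold and 21.7-fold). The region counted for RHD lay 7.95 kb outside it, at the start of its neighbour TMEM50A. GYPB, GYPC, SLC4A1, SPTB, RHAG, KEL, ADD2, TMOD1 and AQP1 were among those with no region.

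Cytokine receptors and JAK-STAT genes had 14 of 25 called. The space shared by STAT5A and STAT3 gave both their strongest region, so it counts for 2 members. PTPN6, the phosphatase SHP-1 (18.2-fold and 11.7-fold), and SH2B3, the adaptor LNK that restrains JAK2 (19.5-fold and 25.1-fold), followed. CSF3R, the receptor for G-CSF, had 3 regions, the strongest of them 9.45 kb outside the gene (10.9-fold and 28.5-fold). KIT, CSF2RB, CSF2RA, CSF1R, FLT3, IFNAR1, JAK3 and PTPN11 were among those with no region. Cell cycle genes had 15 of 30 called. They were led by CDKN2D, through the region at the start of its neighbour KRI1, and by CCND3, the cyclin D3 gene with 3 regions (10.1-fold and 21.6-fold). MCM3, a helicase subunit, had 11.3-fold and 7.37-fold, and E2F1, a factor of S phase entry, 9.14-fold and 8.79-fold. CDKN1A, CCND1 and RB1 were among those with no region.

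Lists of other lineages were near or below the share of all genes. Myeloid granule and surface genes had 4 of 20 called, with a median strength of 41.3 and no summit at 13 known starts. They were CST7 (8.77-fold and 21.7-fold), ELANE, TYROBP and CD33. Lymphoid genes had 6 of 20 and no summit at 12 known starts. Their median strength was 71.4, above the 54.6 of all called genes. The strongest was NKG7, a granule protein of killer cells (35.1-fold and 30.2-fold, 3 regions). Its best region lay 3.69 kb outside the gene in the body of another. CD3D and CD3G shared 1 region (5.84-fold and 12.6-fold). Genes of tissues outside the blood had 3 of 30, with a median strength of 15.6. They were SLC17A7 (21.4-fold and 23.6-fold, 2.17 kb outside the gene), NEUROG2 and SFTPB. None of these list counts rests on a test, and members of a list that lie side by side can share a region.

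Sequence could be read only in promoter windows, from 250 bp before to 50 bp after each listed start. Of 22011 windows of 15711 genes, 1726 held a summit of the map, 2447 held a summit called in replicate 2 only and 17838 held neither. Motifs were searched on both strands, and a window counted once however many copies it held. The RUNX core was searched as TGTGGT and as its close variant TGCGGT. For ETS family factors the letters searched were CGGAAG, and for GATA factors they were AGATAA. The E-box was written CAGCTG and the AP-1 site TGANTCA. The GC box was written GGGCGG, and the CCAAT box by its own letters. None of these motifs contains another, though copies can overlap at their ends. The RUNX core was in 19.0% of all windows (Wilson interval 18.5 to 19.5), in 17.2% with neither summit, in 22.2% with a replicate 2 summit only and in 32.9% (30.7 to 35.2) with a summit of the map. Its share was higher in stronger regions. The map was split by strength into 4 groups with equal numbers of regions, which gave 416, 412, 484 and 414 windows from weakest to strongest. The share in these was 28.1, 28.2, 33.1 and 42.3%. In the windows of the strongest 10% of regions 90 of 167 held the core (53.9%, 46.3 to 61.3). The TGTGGT form alone was in 11.29% of all windows, 13.96% of those in the map and 25.1% of the strongest 167.

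The CCAAT box too had higher shares in stronger regions, while the ETS and GATA motifs did not. The CCAAT box was in 34.7% of all windows and 51.7% of those in the map, with 35.8% in the weakest group, 51.5% in the next and 60.7 and 57.5% in the stronger ones, and in 108 of the strongest 167 (64.7%). ETS was in 23.6% of all windows, 36.5% of those with a replicate 2 summit only and 37.9% in the map, with 32.9% among the strongest 167. GATA was in 7.90% of all windows but 2.90% in the map, and AP-1 in 6.16% and 2.38%. The E-box had 18.0% and 16.0%, and the GC box 56.3% and 87.2%. The windows differed in base composition: they were 60.9% G or C over all, 68.2% in the map and 68.3% with a replicate 2 summit only, and between the weakest and the strongest group of the map 68.9 and 68.1%. The part of base composition in these shares was not tested. Summits lay a median of 66 bp from the nearest RUNX core in the 568 windows that held one. The median was 35 bp for the CCAAT box, 34 bp for the GC box and 67.5 bp for ETS. For AP-1, the E-box and GATA it was 85, 91 and 100 bp. No allowance was made for the number of copies. A match is not a bound site, and no match says only that these letters are not in the window.

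**Figure D5:**
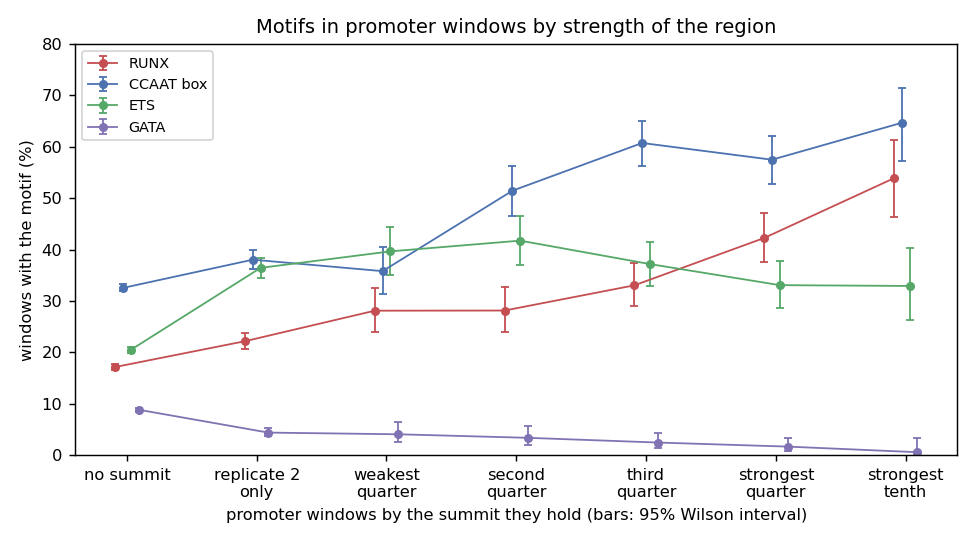
Points give the percent of promoter windows that hold each motif, for windows with no summit, with a replicate 2 summit only, and with a summit of the map in 4 groups of rising strength and in the strongest 10% of regions, with 95% Wilson intervals. The RUNX core is at 28.1% in the weakest group and at 53.9% in the strongest 10%, where GATA is at 0.599%.

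The map was nearly all found again in the mutant lines' longer lists. RUNX1-4A replicates 1 and 2 had peaks in 67.5 and 97.9% of its regions, and RUNX1-4D replicates 1 and 2 in 63.9 and 97.0%. In both mutants the replicate 1 list is the shorter. Of the 6372 regions 3285 (51.6%) were called in all 4 mutant lists and 23 in none, and these 23 had a median strength of 10.8 and a median width of 307 bp. Among the 1593 strongest regions the share was 94.9 and 95.4% in the replicate 1 lists of 4A and 4D, and 41.2 and 31.0% among the 1593 weakest. Differences between the lines were not tested.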

How the data were processed

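CUT&RUN with an anti-HA antibody was done in 8 HEL samples (4 lines, 2 replicates). Peaks came as 6 lists, 1 for each WT, 4A and 4D sample. Per the submitters' processing notes, MACS2 2.2.7.1, Bowtie2 2.4.2, cutadapt 3.4, deepTools 3.5.1 and Picard 2.25.6 were used on hg38. The series design names the empty vector line as background. The sources used here do not state read filters or whether its replicates were pooled. The fold enrichment of a peak, a linear ratio, the deposited −log10 of its p-value and q-value, and the deposited score are the authors' values, used only to describe and rank peaks within a list. The lowest −log10 q was 1.41 in WT replicate 1 and 1.31 in replicate 2.

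Peaks on other sequences (19 and 83) were left out. In a region with several peaks of a list, the peak with the highest −log10 q gave the values, and the location came from the summit of the replicate that ranked the region higher. Genes and strands came from RefSeq tables of GRCh38.p14, where 15811 of 19970 protein-coding genes (79.2%) had a strand. The promoter table has no chromosome 8. Coordinates are 1-based. Named genes are those nearest the 20 strongest regions, the 5 strongest per location, the 10 widest and the 10 largest clusters, the 10 genes with most regions, and per list up to 5 called members by strength and uncalled members; some members of the lists are counted but not reported here by name. The members and lists were chosen with earlier results of these data known. Python 3.11.15, pandas 2.3.3, NumPy 2.4.6, SciPy 1.17.1 and Matplotlib 3.10.9 were used, and the scripts were tested on simulated data. Alternatives were a stricter q, a larger overlap, summit windows, lists of equal length, other distances and leaving out either replicate.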

Additional observations from a re-analysis of the deposited data

How the results depend on the processing

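Of 210 values under alternative settings for 25 results, 158 stayed and 52 moved. A count stayed if it was within 1.5 times its value in the report, and a share or width if it differed by less than 1 SD of the values from each replicate alone. With the lists cut to equal length there were 4243 regions, 3397 genes within 10 kb (17.0%), 334 clusters, a median width of 750 bp and 1.89% of regions at 3′ ends, and the list counts were 10 for actomyosin, 8 for cell cycle and 1 for tissues outside the blood. Joining within 25 and 5 kb gave 893 and 351 clusters. A distance of 50 kb called 9229 genes (46.2% of all) and 196 list members (lymphoid 12, cell cycle 23, outside the blood 13, haem 10, myeloid 11, other blood factors 10, platelet granules 11, red cell membrane 14), and a distance of 2 kb (18.1%) called 9 of the GATA list, 2 lymphoid, 2 myeloid and 4 membrane genes. The nearest gene alone (17.6%) gave 1 myeloid and 4 membrane genes. A −log10 q of at least 5 (21.3%) gave 1 gene outside the blood and 4 granule genes. The 3′ end share was 2.76% with a window of 2000 bp and 0.942% with 500 bp, and TGTGGT alone was in 13.96% of windows. Summit windows have a fixed width and give no median width. With either replicate left out, leaving the other list alone, the ranges were 675 to 4956 for clusters of 2 or more regions, 9 to 15 for ETS family factors, 6 to 11 for T, NK and B lymphoid genes, 9 to 15 for core binding factor and its cofactors, 14 to 22 for cytokine receptors and JAK-STAT, 3 to 11 for genes of tissues outside the blood, 4 to 12 for haemoglobin and haem synthesis, 4 to 12 for myeloid granule and surface genes, 6 to 15 for other blood transcription factors, 7 to 12 for platelet granules and coagulation, 7 to 16 for red cell membrane and skeleton, 280 to 349 bp for the median width, 128 to 215 for list members in all, 26.5 to 32.9% for promoter windows with a RUNX core, 24.9 to 31.5% for between genes, 30.1 to 36.7% for gene body, 4.59 to 6.01% for gene end, strand not known, 25.4 to 37.4% for gene start, 5246 to 10999 (26.3 and 55.1%) for protein-coding genes with a region within 10 kb and 6752 to 25845 for regions, which are then the peaks of a single list. No paired analysis was possible because each result describes 1 line and comes from no test. The shorter list limits the map, and with depth unknown a region that was not called and one that was not bound cannot be told apart.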
